A study of Mus musculus with 15 samples.

Results

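Condensing late spermatids are the last germ cells of the testis that still carry their messenger RNA in a cell body, shortly before release as spermatozoa. They were identified here from measured UMIs (unique molecular identifiers, each standing for 1 captured RNA molecule). They were selected on the UMIs of 12 genes. After a floor of 500 genes and 1000 UMIs per cell and a ceiling of 30% on mitochondrial UMIs, 76494 cells were kept. Of these, 24488 carried at least 10% of their UMIs on Prm1, Prm2, Tnp1 and Tnp2 and at most 1 UMI on the Sertoli cell genes Aard, Rhox8, Defb19 and Defb36. Among these protamine-rich cells, 12053 had a ratio (Smcp + Oaz3 + Gapdhs + Odf1)/(Tnp1 + Tnp2 + 1) at or above 0.179, the median of the untreated mice, and are the condensing cells. The other 12435 are called elongating cells below. The 12 genes of the rule therefore describe the cells and support nothing.

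The scRNA-seq libraries were made with a 3′ droplet assay from 1 testis of each of 15 male DBA/2J mice, 3 per group and 1 library per mouse. T mice were 10 wk old and had received JQ1 at 50 mg/kg intraperitoneally each day for 3 wk. VC-T mice, also 10 wk old, had received the vehicle (DMSO diluted in hydroxypropyl-β-cyclodextrin) over the same time. R and VC-R mice had the same 3 wk of JQ1 or vehicle and were sampled at 16 wk of age, 6 wk after the last dose. UC mice were untreated and 15 wk old, so that UC differs from the other groups also in age and in having had no injections. JQ1 is a small molecule that occupies the bromodomains of the BET proteins, among them BRDT of the male germline. The comparison of T with VC-T asks what reaches this stage under the drug, and those of R with VC-R and UC ask what the stage looks like after withdrawal.

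In spermiogenesis the haploid spermatid silences transcription and replaces its histones first by transition proteins (Tnp1, Tnp2) and then by protamines (Prm1, Prm2). It builds much of the tail and the mitochondrial sheath from stored messages. Smcp encodes a cysteine-rich protein of the mitochondrial sheath, Oaz3 an antizyme of germ cells, Gapdhs the glycolytic enzyme of the fibrous sheath and Odf1 an outer dense fiber protein. The other 2 markers of the label, Tssk6 (a kinase needed for the histone-to-protamine exchange) and Spem2 (a neighbor of Spem1, which serves cytoplasm removal), were not used by the rule.

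The promoters of 4 genes are printed because their genes moved apart along the condensing cells, as described further on: Tnp1 and H2al3 fell, Smcp and Prm2 rose. Smcp and Tnp1 are in the ratio that orders these cells, and Prm2 is in the protamine gate. H2al3 was named for its low condensing-to-elongating ratio in UC. These directions therefore follow wholly or in part from the selection. Sequences are from RefSeq (GRCm38.p6), 250 bases before to 50 after the gene's start, 5′ to 3′ on the gene's strand. Capitals mark matches on either strand to TGATGTCA (a variant of the cAMP response element, chosen after the sequences had been read) and to the TATA core TATAA. The positions are chr1:73015850-73016149 on the minus strand (Tnp1), chrX:9849453-9849752 on the plus strand (H2al3), chr3:92589024-92589323 on the minus strand (Smcp) and chr16:10792056-10792355 on the minus strand (Prm2).
Tnp1: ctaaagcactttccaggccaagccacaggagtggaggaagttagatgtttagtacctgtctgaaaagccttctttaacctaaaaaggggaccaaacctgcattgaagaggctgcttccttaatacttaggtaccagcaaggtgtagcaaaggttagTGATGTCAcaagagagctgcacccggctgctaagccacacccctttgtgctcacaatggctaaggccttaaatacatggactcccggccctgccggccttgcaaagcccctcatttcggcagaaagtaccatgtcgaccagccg
H2al3: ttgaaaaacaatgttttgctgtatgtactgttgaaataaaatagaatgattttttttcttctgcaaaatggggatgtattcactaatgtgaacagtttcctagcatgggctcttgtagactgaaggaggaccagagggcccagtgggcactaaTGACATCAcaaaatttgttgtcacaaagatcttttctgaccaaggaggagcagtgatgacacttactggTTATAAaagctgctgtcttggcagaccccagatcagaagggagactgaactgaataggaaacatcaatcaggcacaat
Smcp: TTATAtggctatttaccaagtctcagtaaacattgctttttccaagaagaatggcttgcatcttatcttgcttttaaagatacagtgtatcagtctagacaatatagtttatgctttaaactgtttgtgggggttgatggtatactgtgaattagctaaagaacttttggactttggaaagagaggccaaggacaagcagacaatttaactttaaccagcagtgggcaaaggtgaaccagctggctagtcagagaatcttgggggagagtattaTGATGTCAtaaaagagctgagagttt
Prm2: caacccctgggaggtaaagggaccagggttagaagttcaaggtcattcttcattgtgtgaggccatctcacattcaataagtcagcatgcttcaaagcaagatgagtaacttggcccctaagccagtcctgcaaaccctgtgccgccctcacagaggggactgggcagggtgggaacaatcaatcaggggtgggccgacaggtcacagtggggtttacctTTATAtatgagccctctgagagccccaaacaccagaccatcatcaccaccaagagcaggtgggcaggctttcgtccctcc
TGATGTCA began at −94 in Tnp1, at −97 in H2al3 and at 24 in Smcp, counted in bases from the gene's start. It also occurred in Gapdhs, and so in 4 of the 13 genes with an entry among 15 looked for. Of 32851 promoters of the same length, 3.62% held it. The TATA core lay at −30 in Prm2 and at −28 and −27 in H2al3, and at −250 in Smcp. It was present in 7 of the 13 genes with an entry and in 24.9% of all promoters. The full element TGACGTCA, present in 1.79% of promoters, had no match in the 13 genes. The letter matches are a description of these windows. They occurred in genes that rose and in genes that fell, and the selection bears on those directions.

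Library differences come first because results below rest on them. The R libraries were deeper, with 40582759 to 98724982 UMIs in total, against 9673587 to 28341295 in the other 12. The limit on Sertoli UMIs removed 17.7% to 24.4% of protamine-rich cells in R libraries, but 3.44% to 4.80% in UC and 1.80% to 12.0% for VC-R. VC-T 1, which the study left out of its expression tests as an outlier, held 1 protamine-rich cell. VC-R 2 had a median ratio of 5.00, against 0.410 in VC-R 1 and 0.323 in VC-R 3. Of 12028 barcodes of condensing cells, 25 occurred in 2 libraries.

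The 6 markers of the label were highest in these cells, although 4 of them are in the rule. In UC they summed to between 23966 and 25584 CPM (UMIs per 1000000 UMIs of the summed cells) in condensing cells, against 13430 to 14051 in elongating cells and 3475 to 4100 in all other kept cells. Tssk6, outside the rule, stood at 2437 ± 250 CPM (SD, n = 3) in condensing and 1416 ± 55.8 in elongating cells of UC, and Spem2 at 468 ± 46.1 and 286 ± 16.1. Both markers were thus higher in the condensing cells, by 0.78 and 0.71 on the log2 scale. Sertoli markers summed to between 30.5 and 37.1 CPM in condensing cells of UC, to between 17.7 and 71.9 in VC-R and to between 32.3 and 54.4 in R. The other kept cells of R had 562 to 647 CPM. The rule admits at most 1 UMI on Aard, Rhox8, Defb19 and Defb36, so low Sertoli values in condensing cells follow in part from the selection. Leydig markers were at or below 5.73 CPM in all 9 libraries of UC, VC-R and R. Spermatocyte markers summed to 89.5 to 163 CPM in condensing and 61.4 to 99.4 in elongating cells of UC, higher in the condensing cells of each library. In other kept cells of UC they summed to 1412 to 1571 CPM. Round spermatid markers went the other way in UC, with 324 to 411 CPM in condensing and 447 to 514 in elongating cells. Macrophage markers summed to between 43.9 and 53.6 CPM in UC, almost wholly from C1qb (43.6 to 53.6 CPM), to between 40.7 and 46.5 in VC-R and to between 55.3 and 62.2 in R, so that every R library was above the other 6. The part of this in the results below was not tested. C1qb rose along the condensing cells of UC from 30.1 ± 2.98 to 76.4 ± 9.75 CPM, while Lyz2, a defining macrophage gene, was at 0 to 0.328 CPM in UC, at 0 in the 3 VC-R libraries and at 5.54, 6.78 and 0.676 CPM in R 1 to R 3.

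The boundary to the elongating cells is a point on a continuum. The 100 UC cells just inside it had ratios of 0.179 to 0.184 and a median of 3020.5 UMIs, and the 100 just outside 0.175 to 0.179 and 3447 UMIs. Between 18.5% and 37.5% of the protamine-rich cells of a library lay within 1.25 times of the threshold.

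Condensing cells were almost missing from the T testes. They numbered 0 of 5841 kept cells in T 1, 1 of 3992 in T 2 and 2 of 2569 in T 3. The count of 0 allows a share of up to 0.0514% in T 1 (3 cells of the total). In VC-T 2 and VC-T 3 they numbered 379 of 3790 (10.0%, exact binomial 95% interval 9.06 to 11.0) and 339 of 3686 (9.20%, 8.28 to 10.2). VC-T 1 held 0 of 5818, which allows up to 0.0516%, so that T and VC-T overlapped. Intervals and floors here cover counting error only. The mean difference was −6.36 percentage points, with p = 0.4 in the exact two-sided permutation test (n = 3 per group, smallest possible p 0.1). Without VC-T 1 it was −9.56 points and the exact p was 0.1, the smallest possible, with no overlap. VC-T 2 and VC-T 3 themselves lay below every UC library, which held 26.3%, 33.9% and 27.5%. The fewer cells in VC-T than in UC were measured at 10 and 15 wk of age, and age and injection cannot be told apart here.

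The 3 condensing cells of T carried 1144, 1425 and 1188 UMIs and ratios of 0.252, 3.20 and 13.7. Before the Sertoli limit, 29 cells of the 3 T libraries passed the protamine gate, with a median of 4 Sertoli UMIs, and 21 of them (72.4%, exact binomial 95% interval 52.8 to 87.3) were removed by it. In the 3757 pooled UMIs of the 3 cells, Prm1 held 6.10% (5.33 to 6.94) and Prm2 9.40% (8.44 to 10.4), with exact Poisson 95% intervals. In VC-T 2 and VC-T 3, the vehicle libraries of the same age, Prm1 held 8.49% and 10.8% and Prm2 8.69% and 9.25%, and the UC means were 6.35% and 9.49%. Prm1, Prm2 and Smcp are in the rule, and the 3 cells came from 2 mice, so that these shares describe those cells and not the T group. Smcp held 1.46% (1.10 to 1.91) against 1.20% and 1.11% in VC-T and 1.36% in UC. Tssk6 held 0.373% (0.204 to 0.625) against 0.208% and 0.180% in VC-T and 0.244% in UC. Spem2 had no UMI, which allows up to 0.0799% (3 UMIs of the total), above the 0.0431% and 0.0364% of VC-T and the 0.0468% of UC. No expression test was possible for T, since no T library had 10 condensing cells. Whether the 3 cells were whole cells or taken-up RNA was not tested.

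After withdrawal the condensing cells were present in every R library. R held 1496, 1507 and 2014 of them, or 21.3%, 19.5% and 15.0% of kept cells. VC-R held 1187, 1293 and 704, or 23.5%, 34.1% and 24.1%. The mean share was 18.6% ± 3.27 for R, 27.3% ± 5.96 for VC-R and 29.2% ± 4.09 for UC (SD, n = 3 each). Every R library lay below every VC-R library, with a mean difference of −8.67 percentage points and an exact permutation p of 0.1, the smallest 3 against 3 can give (0.25 after Benjamini-Hochberg adjustment over 5 such comparisons). The difference depended on the floor of 1000 UMIs per cell and on the ratio threshold, and it was smaller without the limit on Sertoli UMIs. With any number of Sertoli UMIs it was −6.84 points (exact permutation p = 0.2). At the 75th percentile of UC it was −0.61 points (exact permutation p = 1). With a floor of 2000 UMIs the difference was 3.47 points the other way (exact p = 0.5). Under that floor lay 34.8% to 61.4% of the condensing cells in VC-R and 1.34% to 17.8% in R, and the part of this in the turn was not tested. Without VC-R 2 it was −5.24 points (exact permutation p = 0.2) and without R 3 −6.86 points (exact p = 0.3).

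As a share of protamine-rich cells, the condensing cells made up 54.2%, 51.8% and 61.8% in R, and 43.9%, 57.7% and 44.5% in VC-R. The groups overlapped (difference 7.23 percentage points, exact permutation p = 0.3), and with a protamine gate of 20% the sign turned (−8.49). Without VC-R 2 the difference was 11.7 points (exact permutation p = 0.1, the smallest possible), and without R 3 it was 4.29 points. With at least 2000 UMIs per cell it was 12.1 points (exact p = 0.1), at the 75th percentile threshold 15.0 (exact p = 0.3) and with any number of Sertoli UMIs 4.20 (exact p = 0.5). Median UMIs per condensing cell were 3196.5, 3770 and 5324 in R and 2062, 2402 and 1755 in VC-R, or 4097 ± 1101 against 2073 ± 324 (SD, n = 3). R was thus 1.98 times as high with no overlap (exact p = 0.1), in libraries that were also deeper in total. The difference in the median was 2024 UMIs, and 3858 at a protamine gate of 20% (exact p = 0.1). The part of depth in this was not tested. On all UMIs, R exceeded VC-R by 487 genes per cell (exact permutation p = 0.1, the smallest possible). Thinned to 1000 UMIs per cell, R gave 513 ± 4.30 and VC-R 493 ± 27.2 genes per cell, and the libraries overlapped (difference 20.1 genes, exact permutation p = 0.4). The difference was 5.61 genes without VC-R 2 (exact p = 0.7) and 32.5 without VC-R 1 (exact p = 0.1, the smallest possible). It was 32.3 at the 75th percentile threshold (exact p = 0.1) and 8.20 with at least 2000 UMIs per cell (exact p = 1).

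**Figure D1:**
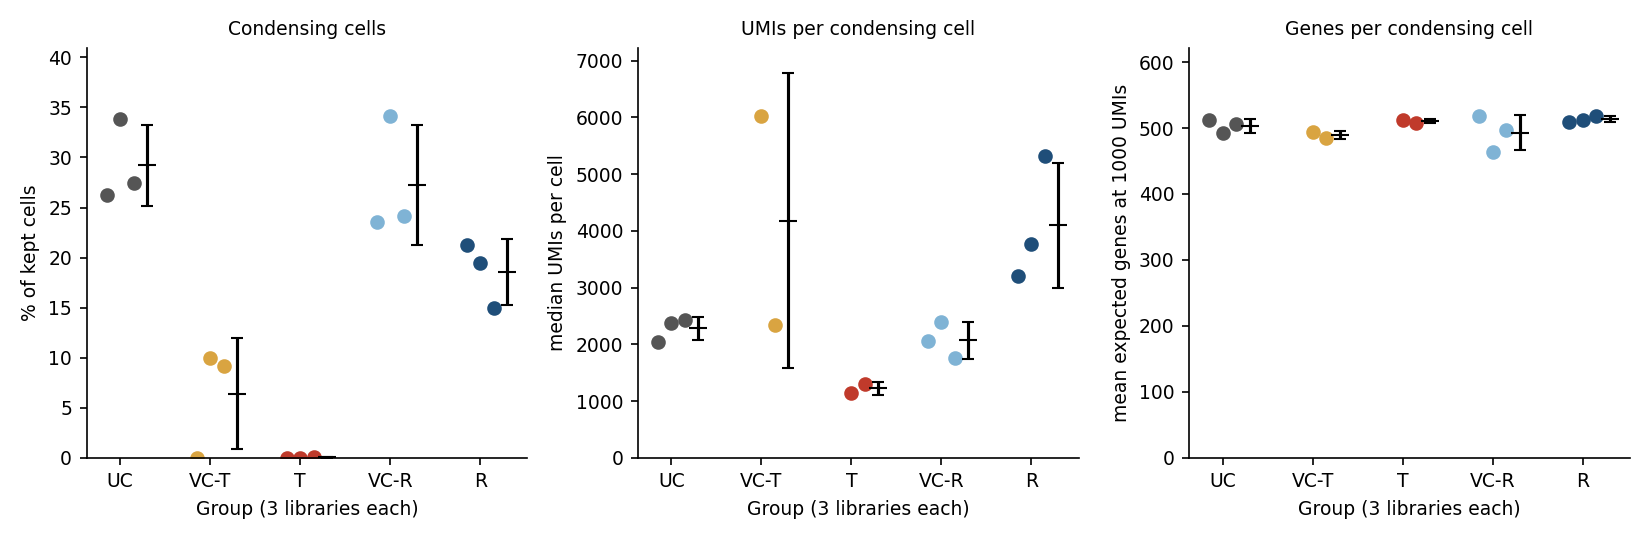
Condensing cells in each library. The panels give, per library and by group, the percent of kept cells, the median UMIs per cell and the genes per cell at 1000 UMIs; each point is 1 library, with mean and SD beside the points (n = 3, or 2 where a T or VC-T library holds no condensing cell). T and VC-T 1 sit at or near 0 in the first panel, where R lies at 15.0% to 21.3% and VC-R at 23.5% to 34.1%.

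The condensing cells were divided into 4 ratio classes at the quartiles of the UC cells (ratios of 0.245, 1.25 and 7.19), with class 1 next to the elongating cells. All class values are descriptions, since the classes come from the same cells. Median UMIs per cell are lower in later classes of UC, so that a level in CPM is a share of what remains.

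Prm2 rose through the 4 classes of UC, from 64399 ± 4787 CPM over 88168 ± 3208 and 113567 ± 4402 to 142734 ± 3810 (SD, n = 3). Prm1 went from 68435 ± 1972 to 86695 ± 4369 and then down over 60446 ± 4072 to 22990 ± 1545 CPM. In class 4, Prm2 was thus at its highest and Prm1 at its lowest. R had the same order, with Prm1 at 91200, 98096, 45527 and 21756 CPM and Prm2 at 68426, 84856, 114624 and 139865. Both genes are in the protamine gate, and the ratio admits little Tnp1 and Tnp2 in the late classes, so these levels describe the selected cells and support nothing. Prm3, a small acidic gene of the same cluster, changed little in UC (2855 ± 64.0 in class 1, 3133 ± 200 in class 4). The transition protein genes, which the ratio divides by, ran from 32312 to 727 CPM (Tnp1) and from 42246 to 1721 (Tnp2).

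The markers outside the rule rose with the class. Tssk6 stood at 1452 ± 160, 2150 ± 143, 2971 ± 177 and 4155 ± 234 CPM in UC, and Spem2 rose from 287 ± 29.9 in class 1 to 835 ± 13.2 in class 4. Spem1 ran from 450 ± 21.2 to 1348 ± 38.4 CPM. Hk1, the first enzyme of glycolysis, ran from 380 ± 28.3 to 1085 ± 76.3, Pgk2, its sperm-specific phosphoglycerate kinase, from 962 ± 57.3 to 2093 ± 84.8, and Spata3 from 2021 ± 107 to 5115 ± 205. Spem1, Hk1 and Spata3 are among the 12 highest condensing-to-elongating ratios of the same UC libraries, so that their rise follows from how they were chosen.

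Cypt1, H2al3 and Tssk1 are among the 12 lowest condensing-to-elongating ratios of the same UC libraries, and their fall along the classes likewise follows from that choice. Cypt1, a cysteine-rich perinuclear theca gene, stood at 693 ± 23.4, 176 ± 5.31, 67.2 ± 20.4 and 56.1 ± 9.14 CPM in UC. H2al3, an H2A-like histone gene, stood at 393 ± 18.9, 99.8 ± 13.8, 25.2 ± 4.80 and 28.9 ± 8.35. Tssk1, a kinase of the same family as Tssk6, ran the opposite way to it, from 453 ± 34.9 to 48.3 ± 9.16 CPM. Hils1, the spermatid linker histone, fell from 1805 ± 148 to 208 ± 17.8, and Ldhc, the germ cell lactate dehydrogenase, from 3106 ± 236 to 1248 ± 121.

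**Figure D2:**
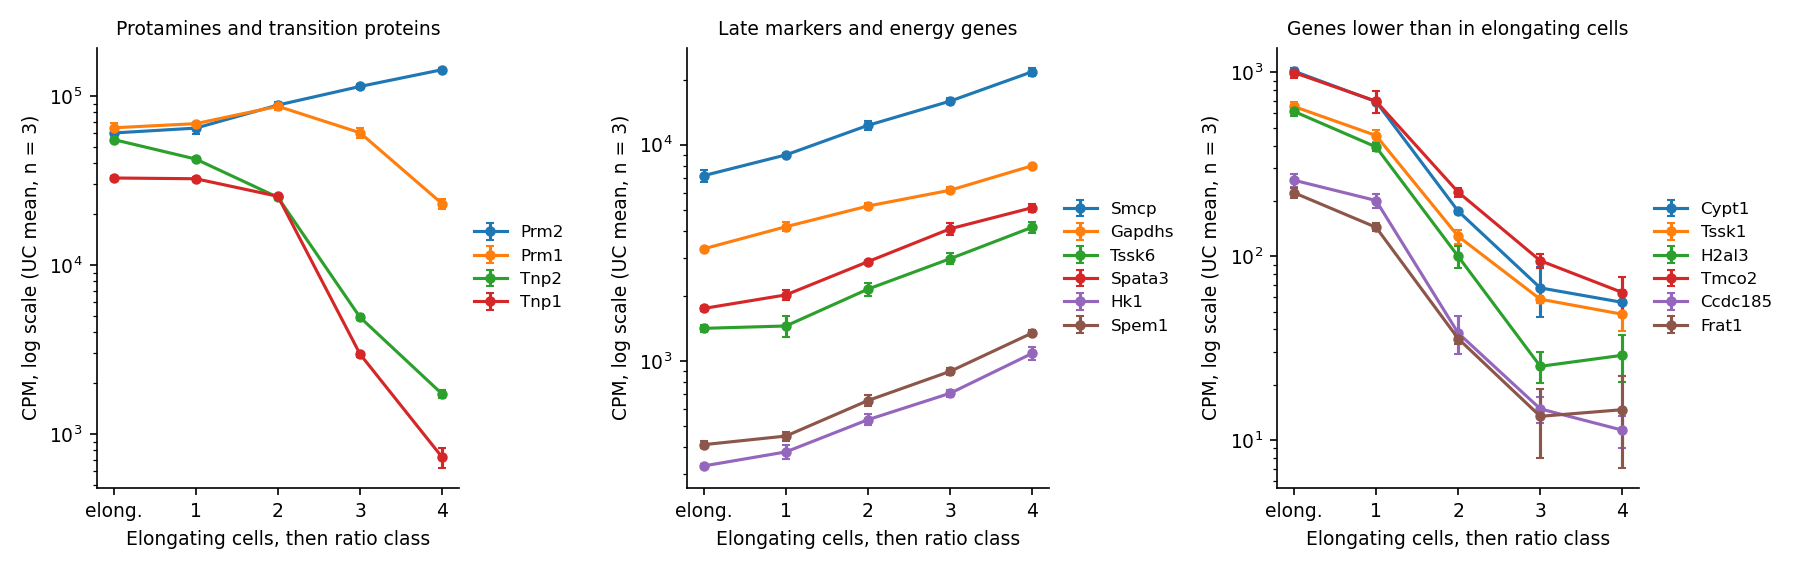
CPM (log scale) in elongating cells and in ratio classes 1 to 4 of the condensing cells, as the UC mean with SD (n = 3). Prm2 climbs to 142734 CPM while Prm1 drops to 22990; Smcp, Tssk6, Spem1 and Hk1 rise through the classes, and Cypt1, Tssk1 and H2al3 fall between classes 1 and 3.

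The function lists were summed without the rule genes among their members. Outer dense fibers and fibrous sheath rose from 14671 ± 287 CPM in class 1 to 21017 ± 654 in class 4, cytoplasm removal and ubiquitin from 8484 ± 234 to 12326 ± 146, and the testis-specific kinases from 4849 ± 322 to 7867 ± 299. Odf2, the major dense fiber protein, went from 4016 ± 274 to 7293 ± 248 CPM, and Akap4, the main scaffold of the fibrous sheath, from 1340 ± 40.6 to 2356 ± 27.8. Glycolysis dipped from 7526 ± 134 to 6921 ± 342 in class 2 and reached 8593 ± 229 in class 4, and the mitochondrial sheath list was close in both (7512 ± 159 and 7885 ± 108). The axoneme list fell from 7961 ± 236 to 3926 ± 403 CPM, the CatSper channel list from 1891 ± 150 to 978 ± 76.8, and head shape and manchette from 8372 ± 364 to 5473 ± 609. Acrosome genes (5622 ± 440 and 5800 ± 329) and cytoplasmic ribosomal proteins (34369 ± 907 and 32476 ± 665) were close in both end classes. The BET genes, targets of JQ1, summed to 110 ± 5.13 CPM in class 1 and 49.4 ± 10.7 in class 4. Brdt itself stood at 22.9, 16.1 and 20.8 CPM in UC 1 to UC 3, at 23.2, 19.3 and 18.0 in VC-R and at 22.0, 24.3 and 23.7 in R, with overlapping groups.

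Against the elongating cells of the same library, far more messages were lower than higher by over 1 on the log2 scale in the condensing cells. Of 1444 genes outside the rule with at least 100 CPM on the higher side in UC, 1249 had the same sign in all 9 libraries of UC, VC-R and R, 559 higher and 690 lower in condensing cells. Only 2 of the 1444 genes were above 1 in the mean log2 ratio over UC and 159 below −1. The lowest were H2al3 (−1.81), Frat1 (−1.77), 4930455C13Rik (−1.75), Sqor (−1.72) and Cypt1 (−1.70). The highest were the mitochondrial transcripts mt-Cytb (1.25 ± 0.40) and mt-Co2 (1.01), then Tbc1d20 (0.96), Oaz3 (0.94), Smcp (0.92), mt-Atp6 (0.92) and Hk1 (0.91). Oaz3 and Smcp are in the rule. Of the 1444 genes, 653 were higher and 791 lower in the UC mean, with a median of −0.11. By list and outside the rule, 9 of 12 glycolysis genes were higher (median 0.27), 7 of 11 dense fiber and fibrous sheath genes (0.14) and 7 of 11 axoneme genes (0.14), although the axoneme list summed to 8972 CPM in elongating and 5963 in condensing cells. Lower were 10 of 14 head shape and manchette genes (median −0.36), 6 of 9 mitochondrial sheath genes (−0.22), 6 of 7 acrosome genes (−0.41, although the list summed to 5698 CPM in condensing and 5247 in elongating cells), 17 of 21 genes of nuclear oxidative phosphorylation (−0.40) and 5 of 5 CatSper and motility genes (−0.53).

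The condensing cells of R were gathered in class 3. R 1 to R 3 had 47.9%, 48.8% and 53.6% of their condensing cells there, VC-R 24.7%, 30.5% and 16.3%, and UC 23.9%, 21.7% and 28.6%. The means were 50.1% ± 3.10 in R and 23.8% ± 7.11 in VC-R (SD, n = 3), a difference of 26.3 percentage points with no overlap. The difference lay between 22.5 and 29.6 points with any 1 library left out. Thinned to 1000 UMIs per cell before the ratio was taken, it was 21.6 points. Since the classes follow the ratio of the rule, these shares are a description and were not tested. This measure was chosen after the class shares had been seen. Class 1 held 13.8% ± 3.12 of the R cells, 28.8% ± 13.4 of the VC-R cells and 25.3% ± 2.70 of the UC cells. VC-R 2 had 37.3% of its cells in class 4, against 12.7% and 14.2% in the other two.

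**Figure D3:**
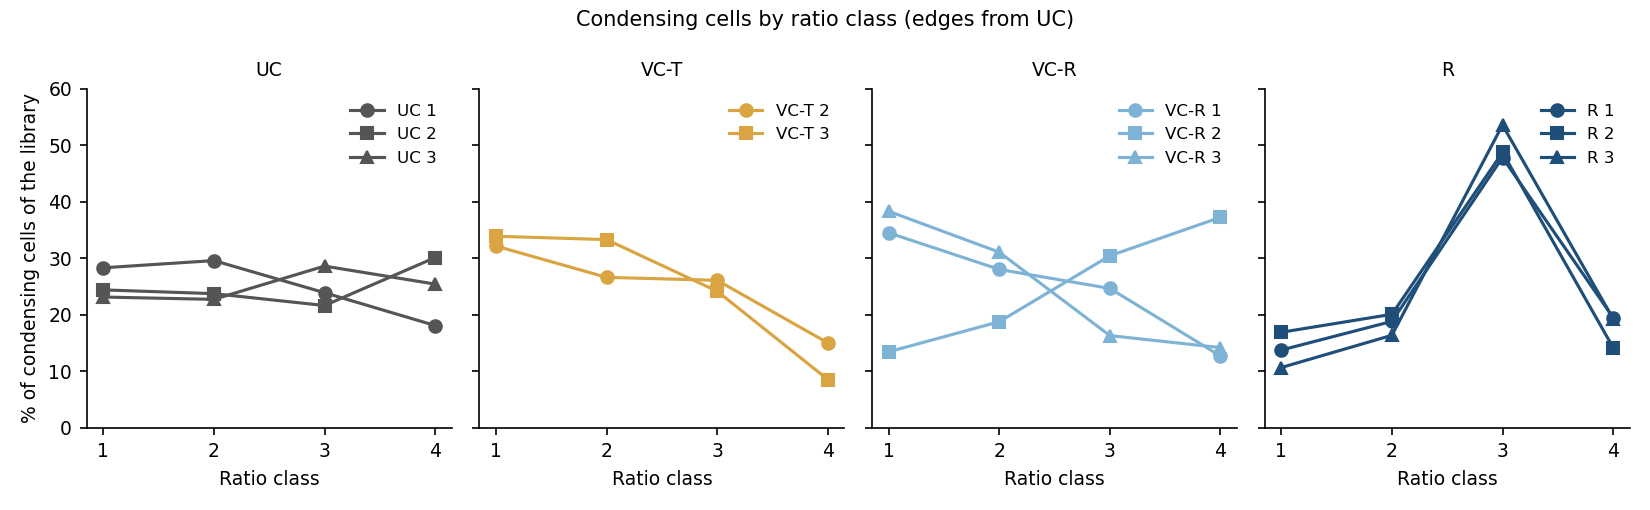
Percent of the condensing cells of each library (y axis) in ratio classes 1 to 4 (x axis), 1 line per library. The 3 R libraries peak in class 3 at 47.9% to 53.6%, and no UC, VC-T or VC-R library exceeds 30.5% there.

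Whole-stage expression was then compared over UMIs summed per library. R differed from UC in 353 higher genes (3.52% of 10039 tested) and 519 lower genes (5.17%) at an adjusted p under 0.05 in edgeR's quasi-likelihood test. With an absolute log2 fold change above 1 as well, 78 genes were called (0.777%), 51 higher and 27 lower. Of these, 71 had a mean under 30 CPM. Against VC-R, the vehicle group of the same age, edgeR called 0 of 10047 genes in either direction (0% higher, 0% lower and 0% with the fold limit), with 1593 genes at an unadjusted p under 0.05 and 3 called by DESeq2. Without VC-R 2 edgeR called 183 genes with the fold limit (1.64% of 11139), 34 higher and 149 lower in R. It called 0 without VC-R 1 and 3 without VC-R 3. The median ratio was 5.00 in VC-R 2 and 3.23 to 4.11 in R, but 0.410 in VC-R 1 and 0.323 in VC-R 3. Results without VC-R 2 thus set R against vehicle cells of lower ratio, and the part of the ratio in them was not tested. VC-R against UC gave 1 call in 8412 (0.0119%), 4930570D08Rik. R is in the comparisons with UC and with VC-R, and UC is in the comparisons with R and with VC-R.

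Of the genes called in R against UC, 6 had a mean of at least 50 CPM, and they are named here after their values were seen. 4930570D08Rik, a noncoding transcript at chrX:133898699-133901213 (minus strand, mm10), stood at 511, 494 and 409 CPM in UC, at 1040, 955 and 818 in VC-R and at 1179, 1088 and 1269 in R. Every R library was above every VC-R library, and every VC-R library above every UC library. R exceeded UC by 1.32 ± 0.09 (log2, SE; adjusted p = 3.91e-11) and VC-R exceeded UC by 1.07 (adjusted p = 0.0422), whereas R against VC-R was 0.24 (adjusted p = 0.487). The call of VC-R against UC was lost without any 1 of the UC libraries and with at least 2000 UMIs per cell. VC-T 2 and VC-T 3 had 688 and 977 CPM. The lincRNA Gm10076 stood at 178, 221 and 277 CPM in UC, 365, 527 and 404 in VC-R and 469, 524 and 438 in R (R against UC 1.06 ± 0.11, adjusted p = 1.78e-07). AY036118 stood at 37.5, 26.6 and 33.1 in UC, at 72.3, 163 and 72.8 in VC-R and at 96.6, 103 and 96.3 in R (1.62 ± 0.11, adjusted p = 5.27e-11). In these 3 transcripts UC lay below both the vehicle and the JQ1 mice. Gm31072 was also higher in R than in UC (1.14 ± 0.12) and lay above all VC-R libraries, at 86.9 to 105 CPM in R against 51.0 to 81.0.

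The other 2 of the 6 were lower in R and are protein coding. Tuba8, an alpha-tubulin, stood at 107, 113 and 83.5 CPM in UC, at 87.4, 29.3 and 118 in VC-R and at 50.9, 53.3 and 38.4 in R (−1.11 ± 0.12, adjusted p = 4.58e-07). Fam71b stood at 123, 136 and 81.8 in UC, 124, 48.3 and 177 in VC-R and 57.1, 60.3 and 45.4 in R (−1.08 ± 0.13, adjusted p = 3.89e-06). VC-R 2 lay below the R libraries in Tuba8 and within them in Fam71b, and the other 2 VC-R libraries lay above. Without VC-R 2, R against VC-R gave −1.08 and −1.44 (adjusted p = 8.84e-05 and 1.15e-05), with only vehicle libraries of lower median ratio than R left. Against UC, Fam71b turned to 0.62 at the 75th percentile threshold (adjusted p = 0.0233) and to 0.65 at a protamine gate of 20% (adjusted p = 0.00268), and Tuba8 fell short of the test there, with −0.18 and −0.32.

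**Figure D4:**
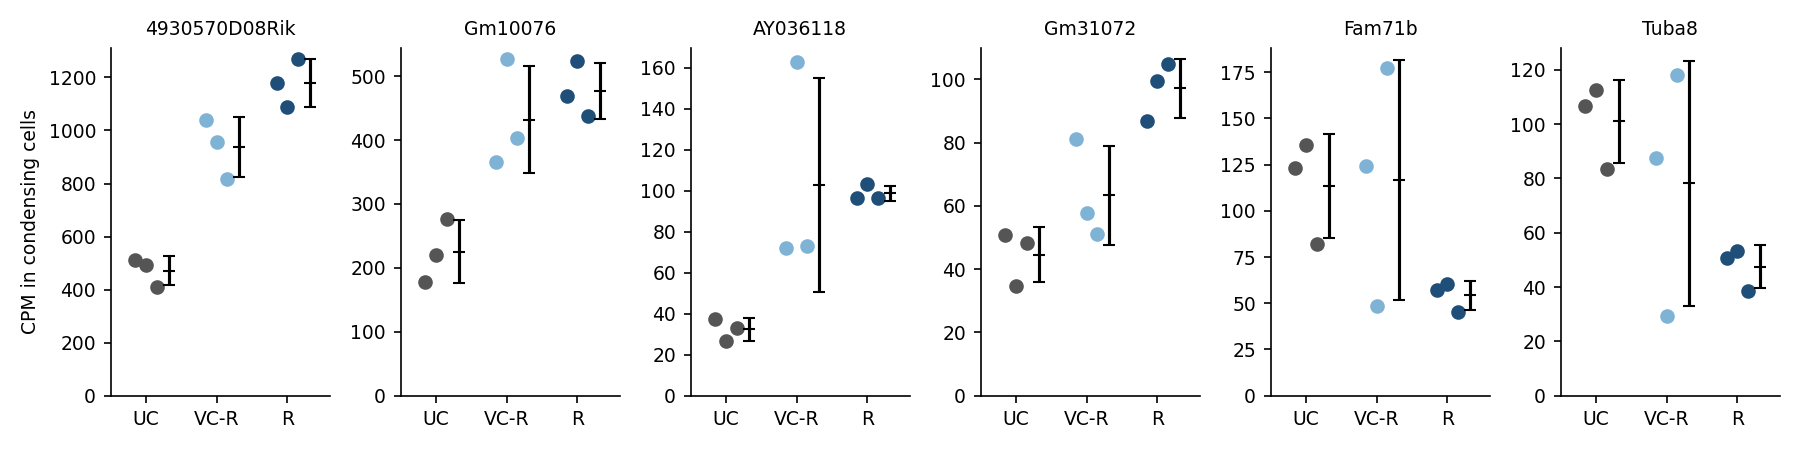
CPM in the condensing cells of each UC, VC-R and R library for the 6 called genes with a mean of at least 50 CPM, with mean and SD (n = 3) beside the points. UC sits lowest in 4930570D08Rik, Gm10076 and AY036118; VC-R 2 is the low vehicle point in Fam71b and Tuba8.

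By function, differences of R from UC were under 1 on the log2 scale, except mt-Atp8 (1.83, at 0.458 to 6.05 CPM in the 9 libraries). The counts that follow are genes past an adjusted p of 0.05 in edgeR's quasi-likelihood test, and over all genes tested 3.52% were higher and 5.17% lower. Of 18 tested head shape and manchette genes, 5 were lower and 0 higher (list median −0.09, against 0.02 over all genes tested). They were Ccin (calicin), Actrt3, Spag4, Cylc1 and Capza3. Ccin stood at 78.8, 71.5 and 54.7 CPM in UC, at 69.6, 34.7 and 104 in VC-R and at 39.6, 39.8 and 28.7 in R (−0.94, adjusted p = 2.52e-05). Of 9 nuclear condensation genes outside the rule, 3 were lower and 0 higher: Hils1 (−0.56), Chd5, a remodeler of the histone exchange (−0.54), and the linker histone H1fnt (−0.27). Hils1 stood at 963, 917 and 752 CPM in UC, 981, 489 and 1262 in VC-R and 647, 644 and 505 in R, so that R lay below UC and overlapped VC-R through VC-R 2. With no VC-R 2, Hils1 was −0.89 against VC-R (adjusted p = 3.16e-05). The vehicle libraries left there had lower median ratios than R, and Hils1 falls along the ratio. The part of this in the difference was not tested.

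The tail lists went both ways. Of 14 outer dense fiber and fibrous sheath genes, Fsip2 (0.68) and Fsip1 (0.46) were higher and Akap3 (−0.61), Odf3 (−0.53) and Ropn1 (−0.42) lower. Of 28 axoneme genes 1 was higher (Spag6, 0.46) and 4 lower, led by Tekt5 (−0.62). Of 19 CatSper and motility genes 1 was higher and 2 lower, of 6 testis-specific kinases Tssk3 was higher (0.27) and Tssk1 lower (−0.44). Of 17 glycolysis genes Eno1 was higher (0.37) and the monocarboxylate transporter Slc16a7 lower (−0.37). Of 14 mitochondrial sheath genes only Spata19 passed, lower in R (−0.46). Cytoplasm removal and ubiquitin had 2 of 15 higher and 4 lower, among the latter the ubiquitin-conjugating enzyme Ube2b (−0.41) and the ligase Rnf148 (−0.72).

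Acrosome genes had 4 higher and 2 lower of 26, with Spaca1 at 74.2, 72.8 and 61.3 CPM in UC, 76.3, 73.0 and 70.3 in VC-R and 89.3, 98.7 and 94.8 in R (0.45, adjusted p = 0.00391). For this gene R lay above both control groups. Of 6 round spermatid markers tested, 2 were higher and 0 lower in R against UC (list median −0.05). Their sums overlapped, at 376 to 397 CPM in R and 324 to 411 in UC. Message storage genes had 1 higher (Ddx4, the germ cell helicase, 0.56) and 2 lower of 17, ribosomal proteins 6 and 12 of 81, nuclear oxidative phosphorylation 6 and 1 of 72, mitochondrially encoded genes 3 and 0 of 12, and proteasome subunits 0 and 2 of 34. None of the 3 BET genes tested passed. Against VC-R no gene of the 10047 passed. The vehicle libraries left without VC-R 2 had lower median ratios than R, which limits the counts that follow. Without VC-R 2, 8 of 18 head shape and manchette genes were lower in R than in VC-R and 0 higher, cytoplasm removal had 4 higher and 4 lower of 15, and ribosomal proteins 4 higher and 13 lower of 83, where 3.38% of the 11139 genes tested were higher and 7.13% lower.

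**Figure D5:**
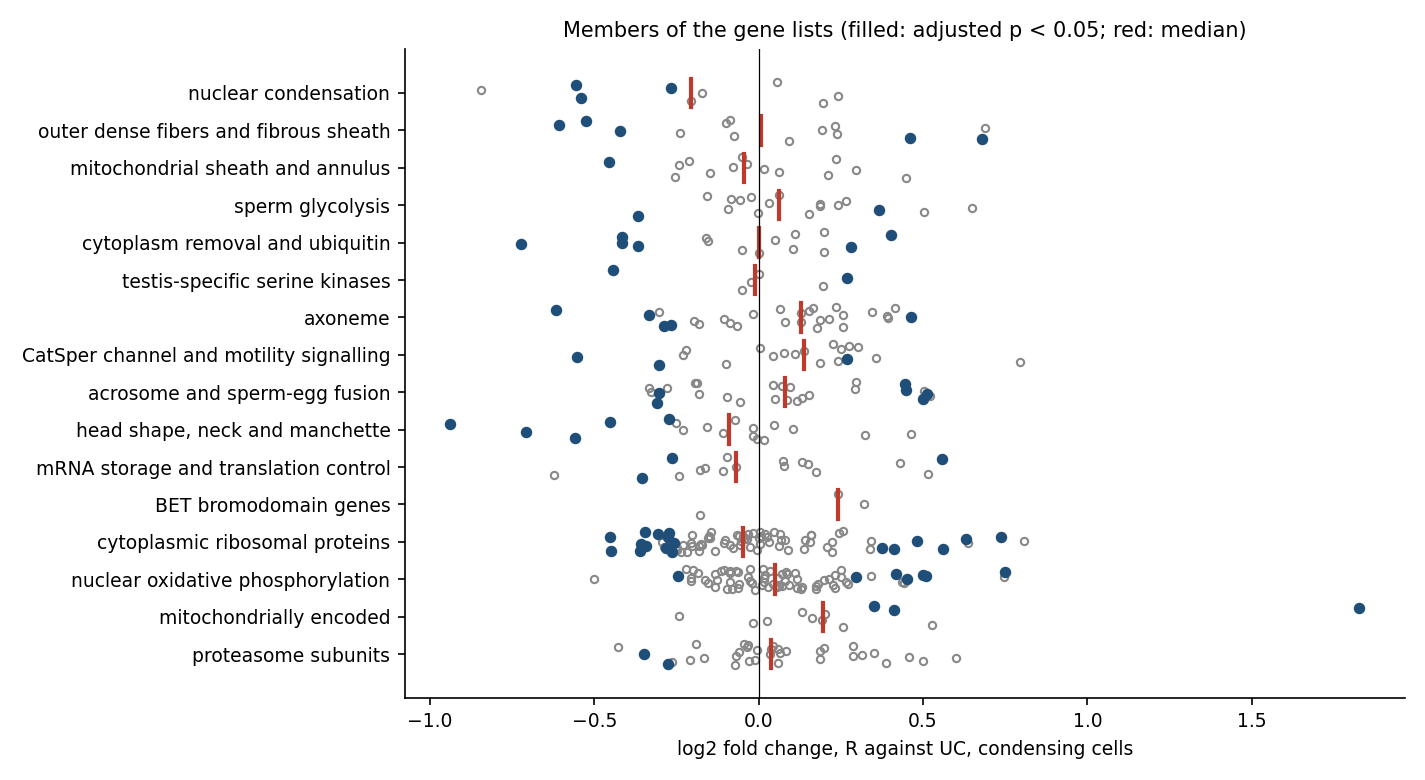
R against UC in condensing cells: log2 fold change of each tested member of the function lists, 1 row per list, with members past an adjusted p of 0.05 filled and the list's median as a vertical line. The head shape and manchette, nuclear condensation, mitochondrial sheath and proteasome lists have filled members on the lower side only. The mitochondrially encoded list has them on the higher side only, and most members of all lists lie within 1 of 0.

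These differences moved with the position of the cells along the ratio. In class 1, R was below UC in Cypt1 (387 ± 66.0 against 693 ± 23.4 CPM) and Hils1 (1144 ± 159 against 1805 ± 148). In class 3 both were higher in R, Cypt1 with 108 ± 6.86 against 67.2 ± 20.4 and Hils1 with 401 ± 14.3 against 247 ± 16.8. Tmco2 had the same crossing, with 484 ± 58.4 against 697 ± 97.3 in class 1 and 159 ± 16.5 against 94.5 ± 8.29 in class 3. The levels of these genes thus fell along the classes by a smaller factor in R. Cypt1 and Tmco2 were named for their low condensing-to-elongating ratios in UC. For them a smaller fall in R than in UC follows in part from that choice. With the same number of cells taken per class in every library, 43 genes were called, 30 higher and 13 lower. There Hils1 was −0.42 (adjusted p = 0.000319), Ccin −0.96 and Cypt1 −0.66. With the threshold moved up to the 75th percentile of UC, 138 genes were called and 135 of them were higher in R. At that threshold Hils1 was 0.55 and Akap3 0.81 higher in R, while Chd5 was still lower (−0.38). Ccin was 0.63 higher in R at that threshold but fell short of an adjusted p of 0.05. Of 70 genes named from the lists and ratios that passed in R against UC, 34 turned their sign there, 17 passed with the same sign and 18 kept the sign without passing, and mt-Atp8 was without a value. With all groups in 1 fit, 8 of the 70 still passed, and with any number of Sertoli UMIs 14.

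The differences between R and VC-R were also compared between condensing and elongating cells of the same libraries. Of 11318 genes, 2 passed (0.0177%), the hemoglobin genes Hba-a1 and Hbb-bs, and DESeq2 called 0.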

How the data were processed

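Counts were deposited as 1 gene-by-cell matrix per library, made by the authors with Cell Ranger against mm10; the submitters' processing notes name version 3.0.0, whereas the matrix headers name 7.0.0, and whether intronic reads were counted is not given in the sources used here. UMI counts were used as deposited. Members, gene lists, genes and tests were chosen with earlier results of these data known. Doublets were not removed by the rule; removing the 5.4% of kept cells of each library with the highest Scrublet score (scanpy 1.11.5) was an alternative.

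UMIs were summed over the condensing cells of each library with at least 10 of them and tested with edgeR 4.0.16 (quasi-likelihood, TMM, filterByExpr, only the groups compared, Benjamini-Hochberg adjustment over all genes tested) in R 4.3.3; calls needed an adjusted p below 0.05 together with a log2 fold change over 1 in either direction, and the 12 genes of the rule were left out of the counts. The script was tested on simulated data. Cell shares and per-cell values were compared between libraries with two-sided exact permutation tests. CPM was computed per 1000000 UMIs of the summed cells, without TMM; log2 ratios of condensing to elongating cells used a pseudocount of 0.5 CPM. Each library is 1 mouse. Depth ranged from 1607350 to 13316079 UMIs in condensing cells of the UC, VC-R and R libraries.

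Genes were named from the lists where they passed the test or had the highest mean, from the 12 highest and 12 lowest condensing-to-elongating ratios in UC among genes with at least 100 CPM and 1 sign in all 9 libraries, and from genes called against both UC and VC-R, of which there were 0. Alternatives were DESeq2 1.42.0, no low-count filter, all groups in 1 fit, a replicate block, each library left out, other gates, thresholds and UMI floors, cells matched on the ratio classes, and thinning to 1000 UMIs per cell. Of the 2 higher members of the cytoplasm removal list, 1 is not reported here.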

Additional observations from a re-analysis of the deposited data

Results flagged for a closer look

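The difference between R and VC-R itself differed between condensing and elongating cells for 2 genes, the hemoglobin genes Hba-a1 (−6.01 on the log2 scale, R minus VC-R in condensing cells minus the same in elongating cells) and Hbb-bs (−5.35). Hba-a1 had 239, 81 and 0 UMIs in condensing cells of VC-R 1 to VC-R 3 and 5, 5 and 7 in those of R 1 to R 3. In elongating cells it had 190, 3 and 0 UMIs in VC-R and 422, 165 and 11 in R. Hbb-bs had 442, 148 and 0 UMIs in condensing cells of VC-R and 15, 14 and 14 in R, against 389, 3 and 1 and 684, 263 and 19 in elongating cells. In each group and cell set most counts came from 1 or 2 libraries, except the low counts of R condensing cells, and UC varied alike, with 46, 2 and 0 UMIs of Hba-a1 in condensing and 3, 103 and 1 in elongating cells. No gene was called without R 1, without R 2 or with DESeq2. Groups of 3 libraries were not examined for outliers.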

How the results depend on the processing

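The count of genes called in R against UC was 78. It was 19 with DESeq2 (15 higher, 4 lower), 119 with no low-count filter, 30 with all groups in 1 fit (24 higher, 6 lower), 138 at the 75th percentile threshold, 135 with at least 2000 UMIs per cell and 43 matched on ratio class. It stayed within 1.5 times of 78, with another split of higher against lower, at a protamine gate of 20% (51 and 5), with any number of Sertoli UMIs (52 and 1) and thinned (60 and 6). More were lower with doublets removed (54 and 47) and without R 2 (52 and 49), and fewer without UC 2 (43 and 9). Leaving out 1 library gave 51 (without R 3) to 192 (without UC 3). For R against VC-R (0) these settings gave 3 with DESeq2, 49 with no filter, 3 with all groups, 43 at the 75th percentile, 1 matched and 2 thinned, and 0 to 183 with 1 library left out, the highest without VC-R 2. For VC-R against UC (1) they gave 2, 11, 5, 4, 4 and 2, besides 3 at a protamine gate of 20% and 0 with at least 2000 UMIs, and 0 to 2 with 1 library left out, with 0 without any 1 of the UC libraries. For condensing against elongating cells (2) they gave 0 with DESeq2, 12 with no filter, 1 with all groups, 47 at the 75th percentile, 1 with any number of Sertoli UMIs, and 0 (without R 1 or R 2) to 134 (without VC-R 2). The floor of 2000 UMIs for these counts and the unlimited Sertoli UMIs were chosen after seeing the data. The R against VC-R share of kept cells turned to 3.47 points with at least 2000 UMIs, and the share of protamine-rich cells to −8.49 at a protamine gate of 20%. At the 75th percentile threshold the share of kept cells was −0.61 points in R against VC-R (−8.67 as reported) and −2.35 in T against VC-T (−6.36), and the share of protamine-rich cells 15.0 points (7.23). The cause of these changes was not tested.

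Deviations of same-numbered libraries correlated at 0.027, 0.091 and 0.433 in R and UC and at 0.057, −0.532 and −0.695 in R and VC-R. Those of differently numbered libraries ran from −0.349 to 0.325 in R and UC and from −0.346 to 0.656 in R and VC-R. Deviations from a mean of 3 libraries offset each other, so these values do not settle whether replicate numbers pair the libraries. With the replicate block, 87 genes were called in R against UC, 1 in R against VC-R and 3 in the comparison with elongating cells, and the 70 named genes that passed in R against UC all passed with the same sign. The block left the smallest exact p at 0.25 for the cell measures.

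Of these 70 genes (26 higher, 44 lower in R), 42 passed with the same sign when matched on ratio class and 28 no longer passed. With all groups in 1 fit 62 no longer passed, with any number of Sertoli UMIs 56, and without UC 2 36, the most for any 1 library. Besides the genes whose sign turned, 40 kept their sign without passing at a protamine gate of 20%, and 29 when thinned. Signs turned in 34 at the 75th percentile threshold, where R minus UC was 4930414N06Rik 0.84, 4930455C13Rik 0.65, 4930567H17Rik 1.04, Actrt3 0.84, Akap3 0.81, Ccdc185 0.71, Ccin 0.63, Cox7a2 0.11, Cylc1 0.53, Cypt1 0.52, Dnajc9 0.74, Fam71b 0.62, Frat1 0.25, Gtsf1 0.50, H2al3 0.51, Hils1 0.55, Lrrc52 0.21, Meig1 0.34, Odf3 0.52, Prss51 0.47, Psmc2 0.036, Rnf148 0.14, Rnf151 0.65, Ropn1 0.20, Slc16a7 0.35, Spag4 0.47, Spata19 0.032, Sqor 0.87, Tekt5 0.86, Tmco2 0.79, Tssk1 0.80, Tssk3 −0.019, Ube2b 0.26, Ybx3 0.43. They turned in 11 at a protamine gate of 20%, with 4930567H17Rik 0.014, Actrt3 0.18, Ccin 0.23, Fam71b 0.65, Gtsf1 0.12, Klhl10 −0.014, Odf3 0.15, Prss51 0.020, Rnf151 0.29, Slc16a7 0.13, Tssk3 −0.064. Thinned to 1000 UMIs per cell, 4 turned, with Gtsf1 0.13, Rnf151 0.073, Slc16a7 0.045, Ybx3 0.032. No other setting turned a sign. Of the 78 called genes, 71 had a mean under 30 CPM, and what depth limits at such levels was not tested.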

Other observations

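Condensing cells with at least 1 UMI on the 4 Sertoli genes made up 13.0%, 19.1% and 17.1% in R, 14.6%, 4.33% and 3.84% in VC-R and 7.20%, 6.97% and 6.87% in UC, where the rule admits at most 1 such UMI per cell. Condensing cells without any mitochondrial UMI made up 32.2%, 20.7% and 14.0% in R, 40.2%, 42.2% and 58.2% in VC-R and 52.8%, 51.7% and 36.1% in UC. Both measures depend on the UMIs captured per cell, whose medians were 3196.5, 3770 and 5324 in R and 2062, 2402 and 1755 in VC-R. The part of this was not tested. In CPM the Sertoli marker sums of R and VC-R overlapped, as given above.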
